A study of Homo sapiens with 13 samples.

Results

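The episomal library with 5 bp spacers held designed arrays of transcription factor motifs, and their transcripts were counted against the plasmid DNA that carried them. An array held 1 to 5 motifs, either copies of a single motif (homotypic) or a pair of different motifs (mixed), placed in 1 of 3 flanking contexts. The 8 motifs are named after NFKB, PU1, IRF, RUNX3, FOXO, MEF2, MYC and CTCF. Every barcode with a construct name and at least 5 plasmid reads was kept, its reads were summed by construct, and constructs with at least 5 barcodes were described. These were 542 constructs, all of the 542 designs found in either episomal table of the series: 115 homotypic arrays, 424 mixed arrays and 3 constructs named rd, 1 per context. The submitters do not say what rd stands for; its name holds no motif, and the 3 rd constructs together are the reference here. Because no construct fell short of 5 barcodes, none lay just outside that minimum. The thinnest inside it were the 5-copy MEF2 arrays of contexts 2 and 1, with 5 and 7 barcodes, and MEF2-PU1-MEF2-PU1-MEF2 in context 1 with 8.

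The cells were MEC1, an established line from chronic lymphocytic leukaemia, labelled as wild type and given no further treatment. About 6000000 cells were electroporated with 30 µg of the plasmid pool for each of 2 replicate transfections, and RNA was harvested at 24 h. The comparison therefore rests on 2 mRNA libraries, 1 per transfection, and on 1 library of the plasmid pool. All 3 come from the same cloned pool, so the replicates share every barcode and every plasmid count. An episomal plasmid is not packaged as the chromosomes are, and a single cell line was used. The libraries count no transcript of the cell, so MEC1 could not be checked against marker genes.

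In STARR-seq the tested array lies within the transcribed part of the reporter, so each transcript carries the identity of the array that drove it. Among the factors that bind these motifs, NF-kB is the activator downstream of B cell receptor and CD40 signalling, and PU.1, an ETS factor, and the IRF factors take part in B cell identity. FOXO factors are forkhead proteins restrained by PI3K and AKT signalling, MEF2 factors are MADS box activators that respond to calcium signalling, RUNX3 belongs to the Runt family, MYC binds E-boxes, and CTCF is the zinc finger protein of insulators and loop anchors. The name of a motif does not say which protein bound it in these cells.

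Random barcodes of 12 bp made each construct a set of many independent plasmid clones. The barcodes below are shown because their reads are the unit of the measurement: each is the barcode with the most plasmid reads in a strong array, a single NFKB motif, an rd construct and a weak array, printed 5′ to 3′ in lower case with no part marked.
FOXO-NFKB-FOXO-NFKB-FOXO, context 1: gatcagcagccc
NFKB, context 1: cgctttgatggc
rd, context 1: tgaaaccatata
CTCF-CTCF-CTCF, context 1: ccgacttcagcg
The first had 58 plasmid reads and 571 and 459 reads in mRNA replicates 1 and 2. The NFKB barcode had 87 plasmid reads and 25 and 18 mRNA reads. The rd barcode had 70 plasmid reads and 27 and 23 mRNA reads. The CTCF barcode had 60 plasmid reads and 8 and 2 mRNA reads. Single barcodes need not follow their construct: the NFKB barcode was at -0.43 and -0.70 against rd, whereas its construct of 744 barcodes was at 0.71. The sequences of the motifs and contexts are not printed here.

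The libraries held 4206555 plasmid reads and 4389405 and 3850658 mRNA reads, of which 2998650, 2826865 and 2477860 belonged to the kept barcodes. There were 236860 such barcodes, with a median of 391 per construct and a range of 5 to 2331. Activity is log2 of the mRNA share of a construct over its plasmid share, minus the same value of the rd constructs. Over the 542 constructs it ranged from -2.16 to 4.66, a 113-fold range. The replicates' activities had r = 0.996 and rho = 0.996 across constructs, given as a description, since both share the plasmid counts. The SD of a construct over the replicates had a median of 0.04, and the standard error over its barcodes a median of 0.05. The latter reached 0.75, and in 52 constructs a single barcode held over 10% of the mRNA reads. Counts were used as deposited, and no source used here says whether reads had been collapsed to molecules. Errors here cover counting and replicate spread only.

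Of the 542 constructs, 335 were more active than rd (61.8%) and 166 less active (30.6%) by edgeR's quasi-likelihood test at an adjusted p of 0.05. The rd constructs themselves lay at 0.04, 0.18 and -0.26 in contexts 1, 2 and 3, and those of contexts 2 and 3 passed the test against their own pool. Beyond that range lay 330 of the higher and 155 of the lower constructs. With the rd construct of the same context as reference, 324 of 539 arrays were higher (60.1%) and 148 lower (27.5%). The split depended on the scaling: it was 231 higher and 245 lower with TMM factors, 225 and 221 with DESeq2, and 130 and 373 with library totals, which moved all activities by -0.55, -0.51 and -1.29. An activity within 1.29 above 0 therefore has its direction against rd alone, while the differences between arrays below do not involve the scaling.

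NFKB motifs went with the highest activities. All 22 arrays over 8-fold above rd held NFKB, as did 65 of the 71 over 4-fold. The most active construct, FOXO-NFKB-FOXO-NFKB-FOXO in context 1, had 1426 plasmid reads over 115 barcodes and 14279 and 11849 mRNA reads. Its activity was 4.69 and 4.63 in the replicates, 25.3-fold above rd. The next was the 5-copy NFKB array in context 1, at 4.11 and 4.02 (16.7-fold). The other 8 of the 10 highest were FOXO-NFKB-FOXO-NFKB-FOXO in contexts 2 (4.05) and 3 (3.60), FOXO-NFKB-FOXO-NFKB in contexts 2 (3.74) and 3 (3.53), the 5-copy NFKB array in contexts 3 (3.73) and 2 (3.53), and the 4-copy NFKB array in contexts 3 (3.49) and 2 (3.45). In each of the 10 the replicates differed by far less than the distance to rd.

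All 15 homotypic NFKB arrays were higher than rd, and their mean of 2.75 ± 0.01 stayed above 0 with TMM scaling (2.19) and with library totals (1.45). Averaged over contexts, activity was 0.91 ± 0.03 (SD, n = 2 mRNA libraries) with 1 copy, 2.46 ± 0.01 with 2, 3.17 ± 0.01 with 3, 3.42 ± 0.03 with 4 and 3.78 ± 0.06 with 5 copies, which is 1.88-fold at 1 copy and 13.7-fold at 5. Here and below, the ± of a mean is this SD between libraries, not the spread over contexts. The ± of a difference between arrays is an SE. In the test of matched arrays that differ by 1 copy in the same context, 22 of 91 steps over all motifs were higher (24.2%) and 23 lower (25.3%), and NFKB gave 11 of the 22 out of its 12 steps. The step from 1 to 2 copies was the largest in every context, at 1.81 ± 0.08 (SE), 1.06 ± 0.08 and 1.78 ± 0.09 in contexts 1 to 3, with adjusted p of 6.92e-06, 9.34e-05 and 8.36e-06 in edgeR. Single NFKB motifs were at 0.71 and 0.71 in context 1, 1.27 and 1.30 in context 2, and 0.69 and 0.78 in context 3. The 2-copy arrays lay between 2.31 and 2.54 in all 3 contexts and both replicates, so the context with the highest single motif did not have the highest pair. Later steps were smaller: 0.65, 0.65 and 0.85 from 2 to 3 copies, 0.15, 0.46 and 0.13 from 3 to 4, and 0.75, 0.07 and 0.24 from 4 to 5. The step of 0.07 in context 2 did not pass the test, and that of 0.85 in context 3 was -0.048 with at least 50 plasmid reads per barcode.

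CTCF motifs went with the lowest activities. All 11 homotypic CTCF arrays were lower than rd, with a mean of -1.60 ± 0.01 (3.03-fold lower), and so were 81 of the 82 mixed arrays with CTCF. The exception was MEF2-CTCF-MEF2-MEF2 in context 3, at -0.20 and 0.02. A single CTCF motif was at -1.70 and -1.61 in context 1, at -1.39 in both replicates in context 2, and at -1.67 and -1.56 in context 3. Measured activity changed little with further copies: the means were -1.55, -1.55, -1.67 and -1.62 for 1 to 4 copies. Of 8 copy steps 1 passed the test, from 2 to 3 copies in context 1 (-0.48 ± 0.13, adjusted p = 0.015 in edgeR). The lowest construct, MEF2-CTCF-MEF2-CTCF in context 2 at -2.31 and -2.00, rests on 17 barcodes. The lowest called construct with at least 20 barcodes was CTCF-CTCF-CTCF in context 1, with 1371 plasmid reads, 143 and 112 mRNA reads and activities of -1.89 and -2.04. Of the 10 lowest, 9 held CTCF, and the other was the 5-copy RUNX3 array in context 1 (-1.52 and -1.83). All barcodes listed had at least 1 read in each library, so barcodes that gave no mRNA read are not counted and such low levels are upper bounds. The single CTCF motif in context 1 had 384 and 354 mRNA reads over 162 barcodes. A further fall with copy number could therefore go unseen.

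FOXO, IRF and MYC arrays lay modestly above rd on average. FOXO arrays rose above rd in 14 of 15 cases, with a mean of 0.49 ± 0.03, IRF arrays in 12 of 15 (0.56 ± 0.12) and MYC arrays in 10 of 15 (0.39 ± 0.07). Over all 542 constructs 335 were higher (61.8%), and the MYC share was near that. With TMM scaling the means of FOXO, IRF and MYC were -0.06, 0.00 and -0.17, so their direction holds against rd only. Copy number changed FOXO little: the means for 1 to 5 copies were 0.33, 0.44, 0.53, 0.45 and 0.69, and 2 of 12 steps passed the test. IRF and MYC steps went both ways, with 2 higher and 2 lower for IRF and 4 higher and 2 lower for MYC.

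Long arrays of MEF2, PU1 and RUNX3 were less active than short ones. MEF2 rose and then fell: the means for 1 to 5 copies were 0.22, 0.86, -0.28, -0.82 and -1.48. Its second copy added 0.63 ± 0.13 and 1.47 ± 0.14 in contexts 2 and 3 but -0.17 ± 0.13 in context 1 (adjusted p = 0.00549, 0.000244 and 0.29 in edgeR), and the step from 2 to 3 copies changed activity by -0.86, -1.02 and -1.54, each past the test. Leaving out arrays with under 20 barcodes moved the MEF2 mean from -0.30 to 0.08. The 5-copy MEF2 arrays rest on 5 to 9 barcodes. PU1 was higher than rd as a single motif in all 3 contexts, in each by less than the shift of library totals (0.70 and 0.71, 0.51 and 0.33, 0.36 and 0.37) and lower than the pooled rd in all 11 longer arrays, with means of -0.26, -0.69, -0.96 and -0.997 for 2 to 5 copies. The 2-copy arrays of contexts 1 and 3, at -0.22 and -0.18, lay within the range of the rd constructs, and the latter lay above the rd construct of its own context (-0.26). Its second copy changed activity by -0.93, -0.80 and -0.55, each past the test. RUNX3 differed by context up to 3 copies: the single motif was at 0.39, 0.68 and -0.42 in contexts 1 to 3, 2 copies at 0.48, 0.16 and -0.64, and 3 copies at 0.26, -0.07 and -0.30. With 4 and 5 copies all 6 arrays were lower than rd, with means of -0.87 and -1.37. The second RUNX3 copy passed the test in context 2 alone (-0.52). The fourth RUNX3 copy changed activity by -0.77, -0.998 and -0.72 in contexts 1 to 3, each past the test.

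FOXO, weak alone, stood beside NFKB in the most active arrays. Averaged over the 3 contexts, FOXO-NFKB had an activity of 1.63 ± 0.03, FOXO-NFKB-FOXO 2.61 ± 0.01, FOXO-NFKB-FOXO-NFKB 3.54 ± 0.01 and FOXO-NFKB-FOXO-NFKB-FOXO 4.10 ± 0.02 (SD, n = 2 mRNA libraries). By context FOXO-NFKB-FOXO-NFKB-FOXO was at 4.66, 4.05 and 3.60. Of the 9 single-motif extensions in this series 8 were higher, against 75 of 220 over all mixed arrays (34.1%, with 91 lower, 41.4%). Adding a flanking FOXO to FOXO-NFKB raised activity by 0.95, 0.88 and 1.12 in contexts 1 to 3, and adding the second NFKB by 0.63, 1.20 and 0.94. With 2 NFKB and 3 FOXO motifs, the 5-motif array exceeded 5 copies of NFKB by 0.60 ± 0.09 in context 1 and 0.52 ± 0.11 in context 2 (adjusted p = 9.37e-08 and 2.8e-05 in edgeR), with replicate differences of 0.58 and 0.61, and 0.46 and 0.59. In context 3 the difference was -0.13 ± 0.12 (adjusted p = 0.3). At 2 and 3 motifs FOXO-NFKB and FOXO-NFKB-FOXO were lower than the NFKB array of the same length in all 3 contexts, by differences of -1.04 to -0.45.

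Each mixed array was set against the homotypic arrays of both its motifs at the same length and in the same context. Over the 842 such tests 447 were higher (53.1%) and 253 lower (30.0%). Of the 424 mixed arrays, 125 were higher than both homotypic arrays, 25 lower than both and 139 between them. A further 129 did not differ from at least 1 of the pair, and 6 lacked a measured partner. By pair, FOXO or MEF2 stood in 119 of the 125 arrays above both: 119 of 254 such arrays, against 6 of 170 with neither. The same 119 and 6 remained when a difference also had to exceed 2 standard errors over barcodes, and 105 and 6 when all arrays needed 20 barcodes. The 254 and the 170 are not alike, since every mixed array of 4 or 5 motifs has a FOXO or MEF2 backbone. Above both were 39 of 168 mixed arrays of 2 motifs and 37 of 154 of 3 motifs. For the longer forms it was 18 of 36 ABAA, 16 of 36 ABAB and 15 of 30 ABABA arrays.

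By pair, all 12 FOXO with MEF2 arrays, 20 of 21 FOXO with RUNX3, 18 of 21 MEF2 with PU1, 17 of 21 MEF2 with RUNX3, 15 of 21 IRF with MEF2 and 14 of 21 FOXO with IRF were above both. FOXO-MEF2-FOXO in context 2 was at 2.59 and 2.62, while the 3-copy arrays were at 0.46 (FOXO) and 0.07 (MEF2), giving differences of 2.14 ± 0.07 and 2.53 ± 0.09. FOXO-RUNX3-FOXO-RUNX3 in context 2 was at 2.40 and 2.46, with 0.52 for 4 FOXO and -1.07 for 4 RUNX3. The highest of these pairs thus passed 4-fold over rd with no NFKB, as did FOXO-MEF2-FOXO in context 3, FOXO-RUNX3-FOXO-RUNX3-FOXO in contexts 1 and 2, and FOXO-PU1-FOXO-FOXO in context 2. These 6 were the only arrays without NFKB over 4-fold.

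MEF2 with PU1 had the largest median gap to its own homotypic arrays, among pairs that differ in the array lengths they hold. All 21 arrays were higher than rd, although the arrays of 4 or 5 copies of either motif alone were all lower than rd. The median of the smaller of the paired differences was 1.86 over the 18 above both. Over all pairs that median also differed with form, at 0.55 for AB and 1.42 for ABABA arrays. The 5-copy arrays of MEF2 and PU1 hold only 5 to 10 barcodes. MEF2-PU1-MEF2-PU1 was at 1.57 over the 3 contexts, whereas 4 copies of MEF2 were at -0.82 and 4 of PU1 at -0.96. In context 3 its difference from 4 MEF2 was 2.38 ± 0.13 and from 4 PU1 2.57 ± 0.15. The 3-motif MEF2-PU1-MEF2 differed from 3 MEF2 by 1.94, 1.87 and 2.04 and from 3 PU1 by 2.18, 2.84 and 2.03 in contexts 1 to 3. In context 2 the smaller of these, 1.87, was below the smaller difference of FOXO-MEF2-FOXO given above. Among the 2-motif arrays, MEF2-PU1 in contexts 2 and 3 did not differ from 2 copies of MEF2 (-0.03 ± 0.12 and -0.21 ± 0.11).

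The opposite outcome, a mixed array below both homotypic arrays, was found in 25 arrays, of which 22 held MYC: 9 with FOXO, 8 with IRF, 4 with RUNX3 and 1 with MEF2. The other 3 were IRF with RUNX3. MYC-FOXO-MYC was at -0.17 and -0.18, -0.49 and -0.59, and -0.28 and -0.28 in contexts 1 to 3, below the 3-copy arrays of FOXO and of MYC in each. FOXO-MYC-FOXO-MYC in context 3, at -0.46 and -0.36, lay 1.21 below 4 copies of MYC (0.80) and 1.09 below 4 of FOXO (0.68), as differences of -1.21 and -1.09. Extending MYC-X by an outer MYC lowered activity in all 3 contexts for the partners FOXO, IRF, MEF2 and RUNX3, with MYC-MEF2 to MYC-MEF2-MYC the largest at -1.44 in context 2.

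Mixed arrays with NFKB or with CTCF were seldom above both of their homotypic arrays (1 of 82 with CTCF). Of 102 mixed arrays with NFKB, 77 lay between their homotypic arrays and 4 above both, and 95 of 102 were higher than the partner's homotypic array with none lower (7 did not pass the test). Arrays with 1 NFKB averaged 1.34 and those with 2 averaged 2.66. These sets differ in length and form as well, since a mixed array with 2 NFKB has at least 3 motifs. The 12 NFKB arrays lower than rd all held CTCF. NFKB-CTCF-NFKB, with a mean of -0.92 ± 0.02, differed from 3 NFKB copies by -4.00, -4.03 and -4.24, and CTCF-NFKB-CTCF by -4.69, -4.27 and -5.13. Mixed arrays with CTCF were lower than the partner's homotypic array in 73 of 82 tests and higher in 2. They were higher than homotypic CTCF in 42 of 78 and lower in none (36 did not pass the test), with none called above rd. Over all 842 tests 53.1% were higher and 30.0% lower, so the share of higher calls does not set CTCF arrays apart. CTCF-MYC and CTCF-MEF2 in context 1 were at -0.69 and -0.58, but at -1.73 and -1.55 without their top barcode.

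PU1 was more active in the first than in the last place of a pair with most partners. Over all pairs, swapping the order of 2 different motifs gave 20 higher (23.8%) and 33 lower (39.3%) differences in 84 tests, with direction set by alphabetical order of the names. Read by motif, with CTCF partners left aside, PU1 in the last place was lower than PU1 in the first place in 14 of 18 tests and higher in 2. MEF2 went the other way, with the last place higher in 12 of 18 tests and lower in 1. The labels do not say which end of the array lies towards the promoter. The PU1 difference was called in all 3 contexts with FOXO (-0.57, -0.46, -0.26), MEF2 (-0.43, -0.82, -0.85), MYC (-0.33, -0.52, -0.45) and NFKB (-0.55, -0.46, -0.56). With IRF it was -0.50 in context 3 but 0.62 in context 2, and with RUNX3 it was -0.29 in context 1 but 0.31 in context 3, each called. With CTCF it was 0.51 and 0.44 in contexts 2 and 3.

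Adding a second PU1 at the end of PU1-X lowered activity in all 18 tests with the 6 partners other than CTCF, by a median difference of -1.05. CTCF is not in this count: in context 2 PU1-CTCF was at -1.06 and PU1-CTCF-PU1 at -0.83. Averaged over the 3 contexts, PU1-FOXO was at 1.20 ± 0.03 and PU1-FOXO-PU1 at -0.24 ± 0.04 (SD, n = 2 mRNA libraries). By context PU1-FOXO was at 1.58, 1.07 and 0.96 and PU1-FOXO-PU1 at -0.48, -0.30 and 0.07. The differences were -2.06 ± 0.07 (SE), -1.37 ± 0.07 and -0.88 ± 0.08. PU1-NFKB was at 1.55 ± 0.01 and PU1-NFKB-PU1 at 0.28 ± 0.02. Along the FOXO backbone activity went up and down with the last motif: FOXO-PU1 was at 0.77, FOXO-PU1-FOXO at 1.39, FOXO-PU1-FOXO-PU1 at -0.17 and FOXO-PU1-FOXO-PU1-FOXO at 0.43. The rise on adding FOXO was called in all 3 contexts at the third place and in contexts 1 and 2 at the fifth, where context 3 gave -0.04 ± 0.11. The fall on adding PU1 was -1.72, -1.48 and -1.49, each past the test. PU1 as the outer motif did not lower every array relative to PU1 alone: PU1-MEF2-PU1, at 0.96, was higher than 3 PU1 copies in all 3 contexts.

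Adding a second NFKB at the end of NFKB-X went the other way. NFKB-X-NFKB exceeded NFKB-X in 20 of 21 tests with none lower (median 1.09), with CTCF partners included, unlike in the PU1 count. The test not called was NFKB-MEF2 in context 2, at 0.12. NFKB-PU1-NFKB was at 2.49 ± 0.01 and PU1-NFKB-PU1 at 0.28 ± 0.02, a difference of 2.60, 2.08 and 1.93 in contexts 1 to 3. In the family of arrays ABA against BAB, 38 of 71 differences were higher (53.5%) and 22 lower (31.0%), with the direction again set by the order of the names. NFKB as the outer pair was higher in all 3 contexts against FOXO, IRF, MEF2, MYC, PU1 and RUNX3, and in 2 of 3 against CTCF. IRF-NFKB-IRF fell short of NFKB-IRF-NFKB by differences of -1.99, -2.11 and -1.54. Among pairs without NFKB, FOXO outside exceeded PU1 outside by 1.82, 1.55 and 1.51, and MEF2 outside exceeded MYC outside by 1.02, 2.03 and 1.499. In these arrays the outer motif has 2 copies and the inner 1, so number and place change together.

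At the fourth place, where ABAB and ABAA differ by 1 motif, 18 of 36 differences were higher for ABAB (50%) and 11 lower (30.6%). After FOXO-PU1-FOXO, PU1 in place of FOXO gave -2.05 ± 0.16, -2.26 ± 0.13 and -1.51 ± 0.15, and the differences of contexts 1 and 2 were the largest of the 36. After FOXO-IRF-FOXO, IRF in place of FOXO also lowered activity in all 3 contexts (-0.92 to -0.58), and after FOXO-NFKB-FOXO or FOXO-RUNX3-FOXO the partner raised it in all 3 (0.39 to 0.78 and 0.35 to 0.66). On the MEF2 backbone the fourth motif raised activity over MEF2 itself in all 3 contexts for NFKB (1.37 to 1.78), IRF (0.77 to 1.31) and PU1 (0.44 to 0.87). CTCF lowered it in all 3, by differences of -1.42, -1.72 and -0.89 in contexts 1 to 3, on arrays of 10 to 70 barcodes. The difference of context 3 did not exceed 2 standard errors over barcodes, each 0.55. PU1 at the fourth place was thus lower than FOXO there and higher than MEF2 there.

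Other order effects were less uniform. Of the 28 pairs, 6 differed in the same direction in all 3 contexts: the 4 with PU1 named above, NFKB-FOXO over FOXO-NFKB (differences of 0.52 to 0.74 in size, all favouring NFKB first) and RUNX3-MEF2 over MEF2-RUNX3 (0.31 to 0.50). In 6 pairs the called direction turned between contexts, in 2 of them (CTCF with MEF2 and CTCF with MYC) only through swaps in context 1 that rest on single barcodes. The 2 pairs with none called were CTCF with IRF and IRF with MYC. The largest swap was MYC-RUNX3 over RUNX3-MYC in context 1, at 0.97 ± 0.10, which was 0.43 ± 0.09 in context 2 and -0.01 ± 0.10 in context 3. Among the 5 largest, CTCF-MYC over MYC-CTCF in context 1 (0.88 ± 0.11) and CTCF-MEF2 over MEF2-CTCF in context 1 (0.77 ± 0.16) each rest on a single barcode, which held 53.2% and 51.3% of the mRNA reads of CTCF-MYC and CTCF-MEF2. Without each construct's top barcode they were -0.10 and -0.11.

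Flanking context went with differences in both directions, more of them lower in the context with the larger number. In 531 comparisons of an array between 2 contexts, 104 were higher (19.6%) and 168 lower (31.6%) in the context with the larger number, with a median difference of -0.08. Arrays with IRF fell from context 1 to context 3 in 18 of 38 tests and rose in 1, while arrays with CTCF rose in 8 of 28 and fell in 2. The largest difference was IRF-RUNX3, at 1.21 and 1.19 in context 1 and lower by a difference of -1.68 ± 0.10 in context 3 (adjusted p = 7.99e-07 in edgeR). The single IRF motif was at 1.05 and 1.11 in context 2 and at -0.19 and -0.04 in context 3. The 2-copy MYC array was at 1.18 and 1.12 in context 1 and at -0.04 and -0.12 in context 2. The 5-motif FOXO and IRF array differed by -1.39 ± 0.13 between contexts 3 and 1. Upward, 4 copies of MYC differed by 0.97 ± 0.13 between contexts 3 and 2, and MEF2-CTCF-MEF2-CTCF by 1.18 ± 0.23. The latter had 17 and 30 barcodes, and a standard error over barcodes of 0.61. In context 3 a single barcode held 36.9% of its mRNA reads, and its activity was -0.98 with that barcode and -1.59 without it.

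The 5 bp table held 100 constructs absent from the 10 bp table, all of the form ABA, with a median of 659.5 barcodes. Of these 41 were higher than rd and 50 lower, with activities from -1.69 to 3.41. They supply at least 1 side of most of the ABA against BAB comparisons. Of the 442 designs in both tables, 306 were less active with 10 bp spacers (69.2%) and 66 more active (14.9%) in a joint edgeR fit. FOXO-NFKB-FOXO-NFKB-FOXO in context 1 was at 4.66 with 5 bp and 2.01 with 10 bp spacers, and the 4-copy NFKB array in context 3 at 3.49 and -0.11. Each spacer had its own plasmid pool and its own rd constructs, so spacer and pool cannot be told apart.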

How the data were processed

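The deposited tables hold raw read counts per 12 bp barcode in 1 plasmid and 2 mRNA libraries, per the file headers and the labels; no source used here gives the authors' alignment and counting steps. Every barcode listed has at least 1 read in each library. Per the labels, the mRNA libraries come from separate transfections. Adjusted p-values rest on counting and on the spread between these 2 libraries, moderated over constructs or pairs, and the plasmid is assumed to vary like them. Matched tests treat the reads of both arrays, from the same 3 libraries, as independent, and constructs recur in several pairs. A standard error there need not follow the replicate spread of its own pair. Reads of barcodes with at least 5 plasmid reads were summed per construct. edgeR 4.0.16 (R 4.3.3) fitted mRNA against plasmid over all 542 constructs, library sizes scaled on rd reads, with Benjamini-Hochberg adjustment. Differences between matched arrays were interaction contrasts, adjusted within each family. Steps were tested on simulated data. DESeq2 1.42.0, TMM, library totals, read and barcode minimums, a left-out replicate and a left-out top barcode were alternatives. The families ABA against BAB, extension by 1 motif and ABAB against ABAA, the standard error over barcodes and the rd construct of the same context were chosen after seeing the data.

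Names were drawn by rule from the homotypic arrays, the rd constructs and the 10 highest and lowest with at least 20 barcodes. The rule also took the best array per pair and the 8 largest differences per family in each direction. Not every member of these lists is printed. Other arrays were named after their values were seen. The members and lists were chosen with earlier results of these data known. A further 9 columns of per-sample values were not used.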

Additional observations from a re-analysis of the deposited data

Results flagged for a closer look

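Of the 20 highest and lowest constructs, 18 were in both tables, and all 18 passed the joint test of spacer length. Over all 442 shared designs, 306 were lower with 10 bp (69.2%) and 66 higher (14.9%). The 18 were picked by their 5 bp activities, which the difference uses again, so a fall among the highest is partly built in. Their differences of 10 bp minus 5 bp were as follows (log2, adjusted p under 0.05 in edgeR). FOXO-NFKB-FOXO-NFKB-FOXO differed by -2.66, -2.43 and -1.48 in contexts 1 to 3, and FOXO-NFKB-FOXO-NFKB by -2.23 and -1.72 in contexts 2 and 3. The 5-copy NFKB array differed by -3.60, -2.71 and -3.18, and the 4-copy array by -3.07 and -3.60 in contexts 2 and 3. Among the lowest, the 3-copy CTCF array differed by -0.50 and -0.75 in contexts 1 and 3, CTCF-NFKB-CTCF in context 3 by -0.44, the single CTCF in context 1 by -0.61, FOXO-CTCF-FOXO-CTCF in context 1 by -1.73 and the 4-copy CTCF array in context 2 by -1.42. CTCF-MEF2 in context 3 (0.32) and the 5-copy RUNX3 array in context 1 (0.50) were higher with 10 bp. The part of the plasmid pool in these differences was not tested.

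Barcodes without a construct name, 49937 in all and outside every comparison, had an activity of 1.14 against rd, while the named barcodes together were at 1.29.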

How the results depend on the processing

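No paired analysis was possible because the plasmid pool is 1 library and shares fewer than 2 replicate numbers with the mRNA libraries. Library totals in place of rd left 130 constructs higher and 373 lower. With at least 50 plasmid reads per barcode, fewer barcodes remained and the counts of higher and lower calls fell to 118 and 64 against rd, 4 and 5 for copies, 1 and 4 for order, 20 and 25 for context, 81 and 69 for mixed against homotypic, 11 and 8 for ABA against BAB, 15 and 13 for extension and 1 and 0 for the fourth place. By totals the sign turned for FOXO-MYC-FOXO-FOXO in context 2 (-0.25) and in context 1 for IRF-MYC (-0.78; -0.038 by TMM), IRF-RUNX3 (-0.092), MYC-RUNX3 (-0.38), PU1-IRF (-0.68), PU1-MYC (-0.67) and PU1-RUNX3 (-0.54), and for the means of FOXO (-0.80; -0.064 by TMM), IRF (-0.74) and MYC (-0.90; -0.17 by TMM). With at least 20 plasmid reads MEF2-CTCF-MEF2-MEF2 in context 3 was at 0.16 and the MEF2 mean at 0.058 (0.085 with at least 20 barcodes), and with 50 the step from 2 to 3 NFKB in context 3 was -0.048. The cause was not tested. Without the top barcode, CTCF-MYC and CTCF-MEF2 over their swaps in context 1 were -0.10 and -0.11. Leaving out 1 mRNA replicate gave 277 to 284 higher and 107 to 111 lower in the joint fit (290 and 115 with both), 52 to 58 higher and 284 to 290 lower with 10 bp, and differences above 0 numbering 38 to 39 for copies, 31 to 34 for order, 224 to 237 for context, 519 to 520 for mixed, 42 to 44 for ABA, 99 to 101 for extension and 20 to 21 for the fourth place. Depth limits the weak arrays: of barcodes with 5 to 9 plasmid reads 27.0% had 1 mRNA read, and 11 constructs had under 20 barcodes.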

Other observations

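The first base of the random barcode went with the reads it gave. Barcodes that began with C departed from the mean of their own construct by -0.28 on the log2 scale, while those that began with A, G and T departed by 0.13, 0.01 and 0.09. In the 459 constructs with at least 100 barcodes, the share that began with C ranged from 10.2% to 30.8% with a median of 21.6%. Its part in differences between constructs was not tested.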
